A study of Mus musculus with 9 samples.

Results

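Ccl2, Ccl3, Ccl4, Ccl6, Ccl7 and Ccl9 are 6 CC chemokine genes expressed by mouse macrophages, and their mRNA was followed through exposure to copper oxide nanoparticles (CuO NPs) and TTM. They were chosen by name, as the rows of the deposited table whose Ensembl identifiers map to these symbols, and make up 6 of 56980 identifiers in all. Each passed the filter on low values, as did 12904 genes of the table. All cells were MH-S, an alveolar macrophage line transformed with SV40, and polyadenylated RNA was sequenced in 9 libraries, 3 per group, all at 24 h. The control libraries came from cells given neither agent. The CuO NPs libraries came from cells given 20 µg/ml CuO NPs, and the CuO NPs + TTM libraries from cells that received TTM at 10 µM together with 20 µg/ml CuO NPs. TTM is given by its initials alone, which usually mean the copper chelator tetrathiomolybdate where copper is studied. No group received TTM alone, so its effect was measured only beside the nanoparticles. MH-S is 1 line, and whether replicates were separate cultures is not given, so p-values rest on a spread between libraries that may be technical.

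Chemokines are small secreted proteins that draw leukocytes along a gradient through receptors coupled to G proteins. CC chemokines are named for the adjacent cysteines near their amino end, and alveolar macrophages, which take up inhaled particles, release them to call other leukocytes into the airspace. Ccl2 and Ccl7 are monocyte chemoattractants that act through Ccr2. Ccl3 and Ccl4, the macrophage inflammatory proteins 1 alpha and 1 beta, attract macrophages and lymphocytes, and Ccl3 acts in part through Ccr1. Ccl6 and Ccl9 are ligands of Ccr1 in the mouse.

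All 6 genes lie on mouse chromosome 11, in separate clusters of CC chemokine genes. In the reference annotation the first cluster runs Ccl2, Ccl7, Ccl11, Ccl12, Ccl8, Ccl1 and the other Ccl5, Ccl9, Ccl6, Ccl3, Ccl4. Promoter sequence was at hand for 3 of the 6, Ccl3, Ccl6 and Ccl9, neighbours in the second cluster that were all called lower with CuO NPs. For TTM beside CuO NPs Ccl3 was called lower and Ccl6 was not called. Ccl9 was called higher there, a call lost under 2 scalings. The sequence is shown so that the neighbours can be compared. Each run is the RefSeq sequence of build GRCm38.p6 from 250 bases before to 50 bases after the start of the gene, read 5′ to 3′ on the gene's own strand, the minus strand for all 3. The windows are chr11:83649329-83649628 for Ccl3, chr11:83593038-83593337 for Ccl6 and chr11:83578587-83578886 for Ccl9. Capitals mark every match, on either strand, to the motifs searched.
Ccl3: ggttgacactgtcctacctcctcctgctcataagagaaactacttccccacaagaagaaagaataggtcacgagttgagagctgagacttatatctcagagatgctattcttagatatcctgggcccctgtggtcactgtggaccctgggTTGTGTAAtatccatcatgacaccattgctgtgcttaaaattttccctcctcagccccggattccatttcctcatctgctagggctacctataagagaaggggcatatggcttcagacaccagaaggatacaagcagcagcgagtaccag
Ccl6: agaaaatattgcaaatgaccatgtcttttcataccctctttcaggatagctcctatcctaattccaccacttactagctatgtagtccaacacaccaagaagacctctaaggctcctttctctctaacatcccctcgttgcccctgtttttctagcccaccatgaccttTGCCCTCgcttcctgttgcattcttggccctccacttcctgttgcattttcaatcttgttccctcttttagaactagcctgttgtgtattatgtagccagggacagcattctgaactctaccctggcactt
Ccl9: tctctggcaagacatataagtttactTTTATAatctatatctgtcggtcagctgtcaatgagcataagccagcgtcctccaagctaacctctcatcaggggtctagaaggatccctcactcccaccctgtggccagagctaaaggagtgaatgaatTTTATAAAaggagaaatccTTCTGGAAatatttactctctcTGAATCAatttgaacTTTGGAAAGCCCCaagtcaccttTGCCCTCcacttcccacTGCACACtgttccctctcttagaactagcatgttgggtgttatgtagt

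The motifs were the kappaB motif of NF-kappaB, AP-1 (TGANTCA), C/EBP (TTNCNNAA), a loose metal response element core (TGCNCNC) and the TATA box (TATAAA). N is any base, whereas the usual core of the metal response element has A or G after TGC. The Ccl3 window held 1 match, to C/EBP, beginning 100 bases before the start. The Ccl6 window held 1, to the loose metal response core, 81 bases before it. That match, TGCCCTC, has C after TGC, so the usual core was absent from the window. The Ccl9 window held a match to each of the 5 motifs. Its kappaB match began 35 bases before the start and overlapped a C/EBP match that began at base -38, its AP-1 match began at base -53, and another C/EBP match began at base -75. It also held 2 matches to the loose metal response core and 3 to TATA, the latter at bases -224, -94 and -92, of which the pair at -94 and -92 overlapped. Of the 2 metal response matches, TGCACAC, which began at base 3, after the start, fits the usual core. TGCCCTC, which began at base -15, does not. Of 32851 mouse promoter windows of this length, 8.46% held the kappaB motif, 7.81% AP-1, 40.7% C/EBP, 51.0% the loose metal response core and 13.6% TATA. The longest run of bases shared by the Ccl6 and Ccl9 windows was 13 bases long, gccctccacttcc, against 8 for either of them with Ccl3. A match describes these letters, and no binding was measured.

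The label of the cells was checked against markers. Of 12 macrophage markers 10 passed the filter on low values, with summed TPM of 3204 to 3258 in control, 1616 to 1659 in CuO NPs and 1993 to 2059 in CuO NPs + TTM. The others were Siglecf, a defining marker of alveolar macrophages in the mouse, at no more than 0.09 TPM and 0 in most libraries, and the mannose receptor Mrc1, at no more than 0.88 TPM. None of 7 fibroblast markers and none of 8 epithelial markers passed it, and Epcam, Sftpc, Sftpa1 and Scgb1a1 were listed at 0 in every library. A gene each passed among 6 endothelial and 7 lymphocyte markers, with sums of at most 14.3 and 3.36 TPM. Of 7 granulocyte and mast cell markers 4 passed, with sums of 385 to 402, 200 to 221 and 65.2 to 72.5 TPM in the 3 groups, mostly S100a8 and S100a9, and Cpa3 was listed at 0. The granulocyte sum was lower at each step, as was the summed level of the 6 chemokines below. By gene, 1 of the 4 was called higher and 3 lower with CuO NPs, against 11.8% and 30.1% of all genes. With TTM beside them 0 were called higher and 3 lower, against 34.6% and 18.5%. The macrophage sum was lower with CuO NPs, as the chemokines were, and higher again with TTM, where the chemokine sum was lower. The part of either in the chemokine levels was not tested. In bulk RNA, fewer cells making a chemokine and less of its mRNA per cell cannot be told apart.

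The first comparison, CuO NPs against control, asked what the nanoparticles changed. All 6 chemokine mRNAs were lower with CuO NPs. Ccl7 fell most, to 8.84% of its control mean, followed by Ccl9 at 17.5%, Ccl2 at 19.4% and Ccl6 at 30.9%, while Ccl3 and Ccl4 kept 54.3% and 61.4%. All 6 were called lower, against 30.1% of the 12904 genes tested, while 11.8% were called higher and 41.9% in either direction. In all 6 the libraries of the groups did not overlap, against 53% of all genes. The split of all genes depended on the scaling, with 1518 higher and 3890 lower here but 3134 and 2071 when centred on the median gene, and all 6 chemokines were called lower under each. The median log2 fold change was -1.88 over the 6 and -0.12 over all genes tested. Calls are at an adjusted p below 0.05 from limma on log2(TPM + 1), adjusted by Benjamini-Hochberg over all genes tested, and log2 fold changes are on that scale, which understates those of genes with low TPM.

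The second, CuO NPs + TTM against CuO NPs, asked what TTM changed beside the nanoparticles. Ccl2, Ccl3, Ccl4 and Ccl7 were called lower still, 4 of 6 against 18.5% of all genes called lower. Ccl9 was called higher, 1 of 6 against 34.6% of all genes, and Ccl6 was not called. Over all genes 53.1% were called in either direction, 4469 higher and 2384 lower, but 2741 and 4222 when centred on the median gene. The libraries did not overlap in 5 of the 6, against 59.4% of all genes, and the median log2 fold change was -1.04 over the 6 and 0.12 over all genes. With both agents against control, all 6 were called lower, against 28.2% of all genes, while 27.3% were called higher and 55.5% in either direction. None of the 6 had overlapping groups, as in 63.1% of all genes, and the medians were -2.19 and 0.00. The comparisons share libraries, so their values are given side by side and not correlated.

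**Figure D1:**
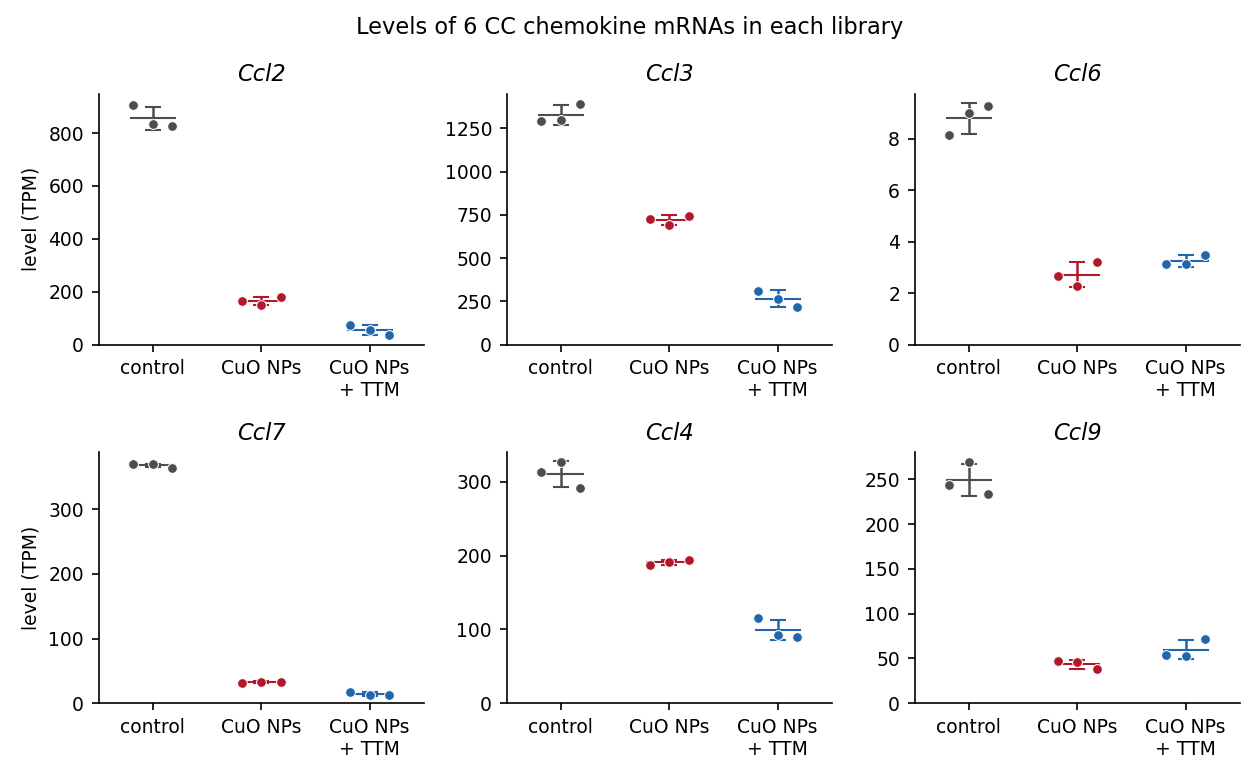
Level of each chemokine mRNA (TPM, linear axis from 0, a scale of its own per gene) in the 9 libraries by group, with points for libraries and bars for mean ± SD over 3 libraries. Ccl2, Ccl3, Ccl4 and Ccl7 step down from control to CuO NPs to CuO NPs + TTM, while Ccl6 and Ccl9 step down once and stay low.

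Ccl2 (ENSMUSG00000035385), the main chemoattractant of monocytes, stood at 906, 835 and 827 TPM in the 3 control libraries, at 165, 152 and 181 TPM with CuO NPs, and at 73.7, 56.8 and 37.5 TPM with CuO NPs + TTM. The 3 groups were fully separate, each below the last, and the libraries with TTM spread widest for their level. The log2 fold change was -2.36 (SE 0.19, adjusted p = 1.27e-05) for CuO NPs against control. It was -1.60 (adjusted p = 0.000120) for the addition of TTM, to 33.8% of the mean with CuO NPs, and -3.96 (adjusted p = 4.21e-07) for both agents against control, to 6.54% of the control mean.

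Ccl7 (ENSMUSG00000035373), which draws monocytes and also binds receptors of eosinophils, read 369, 369 and 364 TPM in control, 31.1, 32.8 and 33.5 TPM with CuO NPs, and 18.0, 12.9 and 12.5 TPM with CuO NPs + TTM. Here too the groups were fully separate, and the control libraries lay within a few TPM of each other. Its log2 fold change with CuO NPs, -3.46 (SE 0.11, adjusted p = 4.71e-08), was the largest of the 6. TTM took it to 44.5% of the level with CuO NPs (log2 fold change -1.13, adjusted p = 3.93e-05) and to 3.93% of control (-4.60, adjusted p = 9.81e-09).

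Ccl3 (ENSMUSG00000000982), which attracts macrophages, T cells and granulocytes, was the most abundant of the 6 in every group. It read 1292, 1298 and 1392 TPM in control, 726, 692 and 745 TPM with CuO NPs, and 313, 265 and 215 TPM with CuO NPs + TTM. No library of a group reached the range of another group. The log2 fold change was -0.88 (SE 0.11, adjusted p = 0.000196) with CuO NPs and -1.46 (adjusted p = 8.65e-06) for TTM beside them. Against control it was -2.34 (adjusted p = 3.41e-07) with both agents, 19.9% of the control mean.

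Ccl4 (ENSMUSG00000018930), a chemoattractant made beside Ccl3 by activated macrophages, read 314, 327 and 292 TPM in control, 187, 191 and 194 TPM with CuO NPs, and 115, 92.9 and 90.3 TPM with CuO NPs + TTM. Its 3 groups were separate as well, and its changes were the smallest of the 4 genes that fell at both steps. They were -0.70 (SE 0.09, adjusted p = 0.000167) with CuO NPs, -0.94 (adjusted p = 2.30e-05) for TTM beside them and -1.64 (adjusted p = 5.96e-07) for both against control on the log2 scale. Relative to the median gene, the first of these was -0.58.

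Ccl9 (ENSMUSG00000019122), a ligand of Ccr1 in the mouse that acts on myeloid cells, read 244, 269 and 234 TPM in control, 47.2, 46.0 and 37.8 TPM with CuO NPs, and 54.3, 53.1 and 72.2 TPM with CuO NPs + TTM. Every library with TTM lay above every library with CuO NPs alone and far below control. It fell by 2.49 on the log2 scale with CuO NPs (SE 0.12, adjusted p = 6.78e-07). TTM beside them raised it by 0.44 (adjusted p = 0.0136), to 137% of the level with CuO NPs and 24.1% of control. That rise was 0.33 above the median gene, and its call was lost with median-of-ratios scaling (0.31, adjusted p = 0.0718) and with centring on the median gene (0.25, adjusted p = 0.137).

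Ccl6 (ENSMUSG00000018927), another mouse ligand of Ccr1, was the least abundant, at 8.13, 9.0 and 9.28 TPM in control, 2.66, 2.27 and 3.22 TPM with CuO NPs, and 3.13, 3.12 and 3.50 TPM with CuO NPs + TTM. The control libraries lay above all others, and the groups given CuO NPs overlapped. It fell by 1.41 on the log2 scale with CuO NPs (SE 0.12, adjusted p = 1.42e-05) and by 1.21 with both agents (adjusted p = 2.36e-05). The difference between the groups given CuO NPs was 0.20 (95% interval -0.06 to 0.46, adjusted p = 0.173). A gene on the opposite strand, E230016K23Rik, overlaps Ccl6 in the reference annotation and had 0.19 to 1.37 TPM, and the sources do not say whether strand was used in counting.

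**Figure D2:**
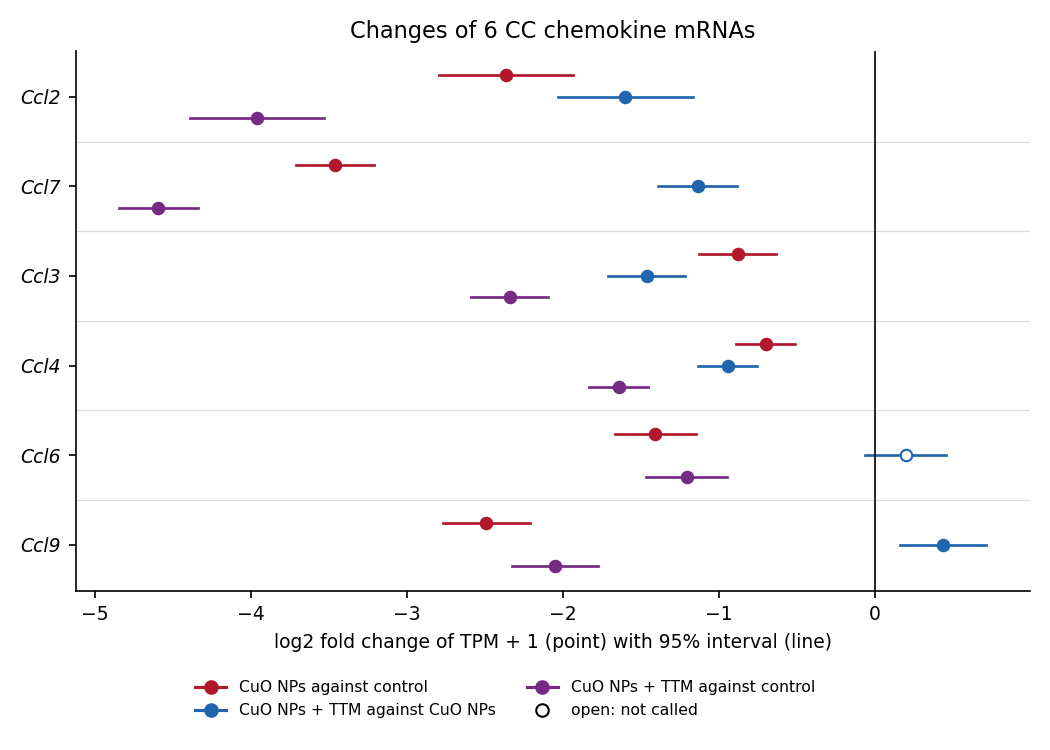
Log2 fold change of TPM + 1 (horizontal axis) for each chemokine in the 3 comparisons, with points for the estimate, lines for its 95% interval and open points for values not called. All points for CuO NPs against control lie below 0, from -3.46 for Ccl7 to -0.70 for Ccl4, and the points for TTM beside CuO NPs lie below 0 for Ccl2, Ccl3, Ccl4 and Ccl7 only.

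The order of the levels in TPM, which are scaled for transcript length, changed with treatment. In control it was Ccl3, Ccl2, Ccl7, Ccl4, Ccl9 and Ccl6 from highest to lowest. With CuO NPs, Ccl4 moved above Ccl2 and Ccl9 above Ccl7, and no neighbours in either order overlapped. With CuO NPs + TTM the order was Ccl3, Ccl4, Ccl9, Ccl2, Ccl7 and Ccl6, in which Ccl9 and Ccl2 overlapped (59.9 ± 10.7 and 56.0 ± 18.1 TPM, SD, n = 3) and no other neighbours did.

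The balance within pairs of related chemokines was followed by their ratio in each library. The ratio of Ccl7 to Ccl2 TPM was 0.430 ± 0.019 in control, 0.197 ± 0.017 with CuO NPs and 0.268 ± 0.057 with CuO NPs + TTM (SD, n = 3). That of Ccl4 to Ccl3 was 0.235 ± 0.022, 0.265 ± 0.010 and 0.380 ± 0.036 in the same order. The ratio of Ccl9 to Ccl6 was 28.4 ± 2.7, 16.6 ± 4.4 and 18.3 ± 2.0. In 8 of the 9 comparisons of a ratio between groups the libraries did not overlap. The exception was Ccl9 to Ccl6 between the groups given CuO NPs. Exact two-sided permutation tests of the log2 ratios, 9 in all, gave p = 0.1 in those 8, the smallest that 3 against 3 libraries allow (adjusted p = 0.1125), and p = 0.5 in the other, so none could pass 0.05.

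Together the 6 chemokines summed to 3119 ± 13.1 TPM in control, 1157 ± 39.9 with CuO NPs and 497 ± 74 with CuO NPs + TTM. Their mean share of all CC ligand TPM was 90.8%, 75.1% and 69.2% in the same order. Ccl2 made up 24.9% of CC ligand TPM in control, 10.7% with CuO NPs and 7.71% with TTM added, and Ccl7 10.7%, 2.11% and 2.00%. Ccl3 stayed the largest component, at 38.6%, 46.8% and 36.7%, and Ccl4 took 9.04%, 12.4% and 13.9%. Ccl9 took 7.24%, 2.84% and 8.49%. The share of Ccl5, which attracts T cells, was 6.08%, 23.0% and 27.1%.

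**Figure D3:**
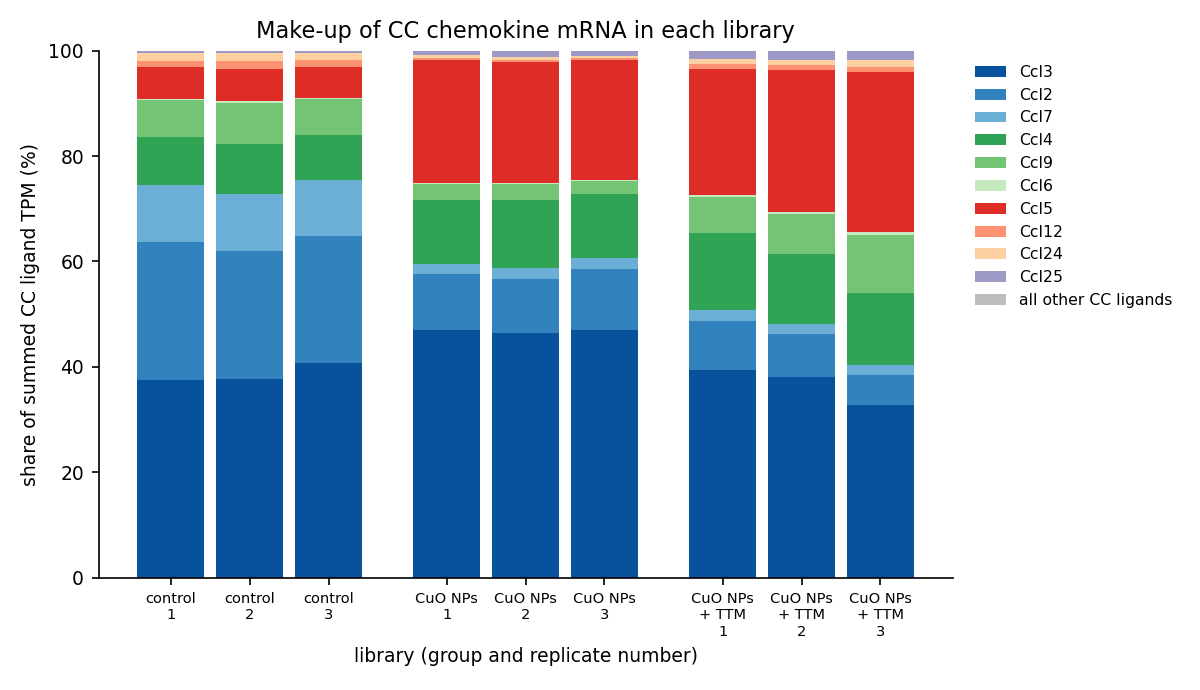
Share of the summed TPM of all CC chemokine ligands (vertical axis, %) taken by each ligand in each of the 9 libraries, as stacked bars. The blue segments of Ccl2 and Ccl7 shrink from control to both treated groups while the red segment of Ccl5 widens from 6.08% to 23.0% and 27.1% by mean.

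Of the 15 other CC ligands 4 passed the filter, Ccl5, Ccl12, Ccl24 and Ccl25, and the rest never exceeded 0.37 TPM. Ccl5, which lies in the cluster with Ccl9, Ccl6, Ccl3 and Ccl4, read 209, 213 and 204 TPM in control, 363, 342 and 360 TPM with CuO NPs, and 190, 187 and 200 TPM with CuO NPs + TTM. It was highest with CuO NPs alone, where no library overlapped the other groups. It rose by 0.76 on the log2 scale with CuO NPs (adjusted p = 1.42e-06) and fell by 0.88 when TTM was added (adjusted p = 1.12e-06). Against control with both agents it was lower by a log2 fold change of -0.12 (adjusted p = 0.0386). That last call was lost in 12 of 20 alternative settings, among them the omission of control replicate 1 or 2, CuO NPs replicate 3 or CuO NPs + TTM replicate 1 or 2 (-0.12 to -0.10).

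Ccl12, a monocyte chemoattractant of the mouse encoded beside Ccl2 and Ccl7, was at 42.0 to 50.4 TPM in control, 4.50 to 5.40 with CuO NPs and 5.99 to 7.58 with CuO NPs + TTM. Its control libraries were the highest by far and the treated groups were close but separate. It fell by 2.93 with CuO NPs (adjusted p = 1.23e-07) and by 2.61 with both agents (adjusted p = 2.13e-07). The small rise with TTM beside CuO NPs (0.31, adjusted p = 0.0399) lost its call in 13 of 20 settings, including the omission of control replicate 1 or 3, CuO NPs replicate 1 or 2 or CuO NPs + TTM replicate 1 (0.21 to 0.34).

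Ccl24, an eosinophil chemoattractant encoded on another chromosome, fell from 51.1 ± 2.37 TPM to 8.78 ± 0.730 with CuO NPs (log2 fold change -2.41, adjusted p = 5.53e-08) and stood at 7.93 ± 0.536 with TTM added. The difference between the treated groups was not called (-0.13, adjusted p = 0.194), but was called lower with median-of-ratios scaling, centring on the median gene and quantile normalization (-0.35 to -0.25). Ccl25, a thymic and gut chemokine, stood at 12.0 ± 0.741, 15.2 ± 2.68 and 11.6 ± 0.787 TPM. It was not called with CuO NPs against control (0.30, adjusted p = 0.0602), though it was under 4 other scalings and without CuO NPs replicate 1 (0.42, adjusted p = 0.0162). It was called lower with TTM beside them (-0.35, adjusted p = 0.0281), a call lost in 7 settings, including the omission of CuO NPs replicate 2 or 3 or CuO NPs + TTM replicate 2 or 3 (-0.36 to -0.23).

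Of 15 CC receptors 4 passed the filter and the others stayed at or below 0.49 TPM, among them Ccr2, the receptor of Ccl2, at no more than 0.06 TPM. Ccr1, a receptor of Ccl3, Ccl6, Ccl7 and Ccl9, was at 16.2, 14.3 and 15.6 TPM in control, 4.29, 4.41 and 4.04 with CuO NPs, and 3.36, 2.08 and 2.09 with CuO NPs + TTM. Its groups were separate, each below the last. The log2 fold changes were -1.64 with CuO NPs (adjusted p = 1.62e-05), -0.60 for TTM beside them (adjusted p = 0.00493) and -2.24 for both (adjusted p = 1.58e-06). Ccr10, at 2.95 to 4.94 TPM over all libraries, was called in no comparison. Ccrl2, a receptor that binds ligands without signalling through G proteins, was called lower with CuO NPs (-0.32, adjusted p = 0.0334) and higher with TTM beside them (0.30, adjusted p = 0.0384). Each of these calls was lost in 12 of 20 settings. The first was lost without control replicate 2 or 3 or any CuO NPs library (-0.34 to -0.20). The second was lost without control replicate 2, any CuO NPs library or CuO NPs + TTM replicate 1 or 3 (0.26 to 0.30).

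**Figure D4:**
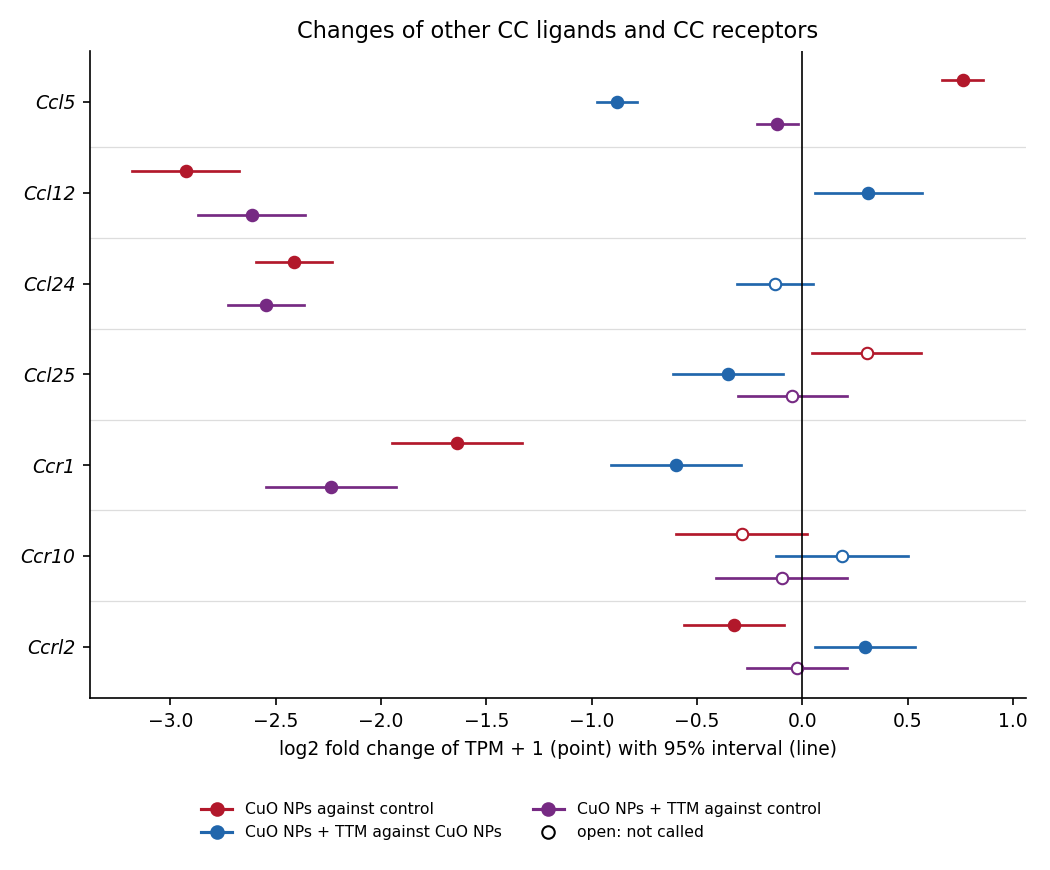
Log2 fold change of TPM + 1 (horizontal axis) of the 4 other CC ligands that passed the filter and of the receptors Ccr1, Ccr10 and Ccrl2, in the 3 comparisons, with points for the estimate, lines for its 95% interval and open points for values not called. Ccl5 lies at 0.76 with CuO NPs and -0.88 for TTM beside them, whereas Ccl12, Ccl24 and Ccr1 lie far below 0 with CuO NPs.

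The counts of further gene lists are to be read against the shares of all genes called. These were 11.8% higher and 30.1% lower with CuO NPs, 34.6% and 18.5% for TTM beside them, and 27.3% and 28.2% for both agents against control. Among 8 tested chemokines of the CXC, CX3C and XC families, 2 rose and 6 fell with CuO NPs. Cxcl2, which attracts neutrophils, rose from 179 ± 13.1 to 342 ± 7.19 TPM (log2 fold change 0.93, adjusted p = 0.000974), and Cxcl10, an interferon-induced attractant of T cells, by 0.80. Both fell when TTM was added, by 1.92 and 0.95. Cxcl13, a B cell chemoattractant, fell by 2.69 with CuO NPs and rose by 1.15 with TTM. Of the 8, 3 rose and 2 fell with TTM beside CuO NPs, and 7 fell and 0 rose with both against control. Among those 3, the rise of Pf4 was 0.18, only 0.07 above the median gene. Another gene of the 3 lay below 1 TPM in both groups, and its call was lost in 10 of 16 settings. Cxcl2, Cxcl10 and Ccl5 were thus each called higher with CuO NPs and lower when TTM was added.

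The 21 tested genes of chemokine receptor signalling gave 18 lower and 0 higher calls with CuO NPs, against 30.1% and 11.8% of all genes, among them the Src family kinase Lyn (-0.97). With TTM beside CuO NPs 10 rose and 2 fell, against 34.6% and 18.5% of all genes. Pik3r5, a regulatory subunit of the G protein-coupled phosphoinositide 3-kinase, rose by 0.60, and Plcb3, a phospholipase C, by 0.57. Rgs2, which limits G protein signalling, fell by 1.03. This second count depended on the scaling. It was 5 higher and 5 lower under median-of-ratios scaling and 4 and 5 when centred on the median gene. The first count, with CuO NPs, included changes as small as -0.18. Centring moved the median log2 fold change of all genes there from -0.12 to 0.06, so such calls can depend on the scaling too. Against control, both agents together gave 1 higher and 11 lower, against 27.3% and 28.2% of all genes.

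Of 24 tested transcription factors known to act on chemokine genes, 5 rose and 12 fell with CuO NPs, against 11.8% and 30.1% of all genes. Cebpb, a C/EBP factor of inflammatory genes, read 78.4, 98.9 and 145 TPM in control, 364, 326 and 152 TPM with CuO NPs, and 109, 103 and 312 TPM with CuO NPs + TTM. Its libraries varied widely within each group, though control and CuO NPs did not overlap. Its log2 fold change with CuO NPs was the highest of the 24, 1.33 (adjusted p = 0.0409). The call was lost in 7 of 20 settings, among them the omission of control replicate 1 or 2 or CuO NPs replicate 1 or 2 (1.09 to 1.29). Atf3, a stress-induced repressor of inflammatory genes, rose by 0.59 (adjusted p = 0.000325). Maf, a factor of resident macrophages, fell by 2.09 and Fos, a subunit of AP-1, by 1.85. With TTM beside CuO NPs 4 rose and 7 fell, against 34.6% and 18.5% of all genes. Irf8, a factor of the monocyte lineage, rose by 0.81 and Bcl6, a repressor, by 0.75, whereas Cebpa fell by 0.83 and Atf3 by 0.58. Both agents against control gave 4 higher and 12 lower, against 27.3% and 28.2%.

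The 14 RNA-binding proteins tested, which act on the stability of chemokine mRNA, gave 2 higher and 6 lower calls with CuO NPs, against 11.8% and 30.1% of all genes. Khsrp, a decay factor, rose by 0.38, and those that fell included Zfp36l2 (-0.75) and the endonuclease Zc3h12a (-0.62). With TTM beside CuO NPs 2 rose and 4 fell, against 34.6% and 18.5%. Zfp36, which binds AU-rich elements and speeds decay of mRNAs including that of Ccl3, read 15.7 to 16.5 TPM with CuO NPs and 35.3 to 36.8 TPM with TTM added, a rise of 1.12 (adjusted p = 1.12e-06), and its control libraries lay between, at 23.8 to 25.3 TPM. Zc3h12a, which also degrades inflammatory mRNAs, fell by a further 0.78 on addition of TTM. Both agents against control gave 4 higher and 4 lower, close to the 27.3% and 28.2% of all genes.

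Of 7 tested proteases and clearance genes, 5 fell and 0 rose with CuO NPs, against 30.1% and 11.8% of all genes, with Mmp13 (-2.34) and Mmp8 (-1.88) changed most, both metalloproteases. With TTM beside CuO NPs 2 rose and 3 fell, against 34.6% and 18.5%. Mmp8 rose by 0.66 and the lysosomal protease Ctsd by 0.51, and the macrophage elastase Mmp12, which cleaves chemokines, fell by 1.43. Both agents against control gave 0 higher and 6 lower, against 27.3% and 28.2%. All 10 tested macrophage markers fell with CuO NPs, against the same 30.1%, among them the scavenger receptor Marco (-2.01) and Mertk (-1.67), a receptor for apoptotic cells. With TTM beside CuO NPs 6 rose and 2 fell, with Marco at 1.05 and Csf1r at -0.95, and both agents against control gave 1 higher and 6 lower. The shares of all genes are those given for the proteases.

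None of the 3 tested genes that flank the second cluster was called lower with CuO NPs. Of all genes 30.1% were called lower and 11.8% higher, and 3 genes are too few to compare with those shares. Taf15, beside Ccl5, was at 110 ± 7.06 TPM in control and 142 ± 2.33 with CuO NPs (log2 fold change 0.37, adjusted p = 0.00154), and Wfdc17, beside Ccl4, at 165 ± 10.2 and 186 ± 6.0 TPM (0.17, adjusted p = 0.0384). Wfdc18, at about 1 TPM, was not called (0.18, adjusted p = 0.658). Around the first cluster no flanking gene passed the filter.

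The genes whose profiles over the 9 libraries lay nearest to each chemokine were found by the root mean square (RMS) difference between mean-centred log2(TPM + 1) values, among 8880 tested genes with a mean of at least 5 TPM. The nearest to Ccl2 were Csf3 (RMS difference 0.303), the complement receptor C5ar1 (0.322) and the formyl peptide receptor Fpr1 (0.362). Csf3, the gene of granulocyte colony-stimulating factor, went from 35.4 ± 0.807 to 5.0 ± 0.522 and 0.777 ± 0.015 TPM. Fpr1 went from 11.7 ± 0.479 to 3.38 ± 0.431 and 0.18 ± 0.238 TPM. With both agents these 2 means lay below 1 TPM, where the added 1 TPM shrinks fold changes. Their nearness is on that scale, and in TPM both fell by a larger factor than Ccl2. Csf3 (0.387) and C5ar1 (0.708) were also nearest to Ccl7, followed by S100a9 (0.732). Ccl3 lay nearest to Plaur (0.131), the urokinase receptor, Acod1 (0.141), the enzyme that makes itaconate, and S100a8 (0.148).

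Ccl4 lay nearest to Nfkbia (RMS difference 0.068), the inhibitor of NF-kappaB, then Sfpq (0.087) and Tuba1c (0.089). Nfkbia went from 176 ± 5.70 to 101 ± 2.66 and 57.4 ± 8.03 TPM. Ccl6 lay nearest to Lyz2 (0.109), Egln3 (0.113) and Plk1 (0.118), and Ccl9 to F13a1 (0.185), Mmp13 (0.201) and Emp1 (0.256). Among the chemokines themselves the closest pair was Ccl3 and Ccl4 (0.311), followed by Ccl2 and Ccl7 (0.475), Ccl4 and Ccl6 (0.495) and Ccl6 and Ccl9 (0.503). These differences describe 9 libraries in 3 groups.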

How the data were processed

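Polyadenylated RNA of MH-S cells was sequenced in pairs of reads from a stranded kit, per the labels' protocols. The authors deposited TPM values, which correct for transcript length and sum to the same total in each library, with 2 decimals. The submitters' processing notes list HISAT2, RSEM, fastp, DESeq2 and the build GRCm39, without versions or roles. TPM keep no read numbers, so the depth is unknown and no counting intervals were given. Between 19710 and 20863 genes per library were above 0.

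Symbols were matched by Ensembl identifier for 52073 of 56980 identifiers, from a reference of another build, so only promoters carry coordinates, with their own build. Genes with TPM of at least 1 in at least 3 libraries, 12904 in all, entered 1 two-sided fit of log2(TPM + 1) over the 9 libraries (limma 3.58.1, R 4.3.3, eBayes with intensity trend), with Benjamini-Hochberg adjustment per comparison and a threshold of 0.05. The method was tested on simulated data. Ratios within libraries were compared by exact permutation tests, after 1 TPM was added to each value (scipy 1.17.1). Tables and plots were made with Python 3.11.15, numpy 2.4.6, pandas 2.3.3 and matplotlib 3.10.9.

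Named genes were the 6 chemokines, the tested CC ligands and receptors and up to 2 called genes per direction of each other list. The 3 nearest profiles per chemokine, leaving out the 6 themselves and predicted names, were named too. Results of 2 genes under this rule are not reported here. The flanking genes were named for their position. The members and lists were chosen with earlier results of these data known. The alternatives were other pseudocounts, filters, scalings, variance models, a replicate block and the omission of each library.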

Additional observations from a re-analysis of the deposited data

How the results depend on the processing

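Under 20 alternatives, 358 of 360 values of the 6 chemokines kept their direction and their side of the threshold. The exceptions were Ccl9 for TTM beside CuO NPs, so the count of chemokines called higher there was 0 under median-of-ratios scaling and 0 when centred on the median gene, against 1. The scaling moved the split of all genes called. For CuO NPs against control it was 1518 higher and 3890 lower, but 2534 and 2628 with median-of-ratios scaling, 3134 and 2071 when centred, and 2619 and 2535 with quantile normalization. For TTM beside CuO NPs it was 4469 and 2384, but 3422 and 3509 with median-of-ratios scaling, 2741 and 4222 when centred, and 3455 and 3507 with quantile normalization. One direction reversed, that of Ccl5 for both agents against control, at 0.051 with quantile normalization (adjusted p = 0.296), and the cause was not tested. Leaving out each library in turn gave 4395 to 5442, 6035 to 6702 and 6283 to 7266 genes called in the 3 comparisons. Libraries with the same replicate number did not deviate together (r across genes from -0.13 to 0.01, and 0 libraries correlated best with their own number in both other groups). The replicate block gave 4925, 6469 and 6798 genes called and changed no call of the 6 chemokines. The unknown depth limits what can be said of genes near 0.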
